A study of Mus musculus with 20 samples.

Results

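Liver transcripts of mice exposed to PCB 126 were compared directly with those of mice exposed to Aroclor 1260, with no reference to unexposed mice in the comparison itself. The comparison holds the 10 RNA-seq libraries whose labels name 1 of the 2 exposures alone, 5 HFD + PCB 126 and 5 HFD + Aroclor 1260, out of 20 libraries in the series. The count table lists 21780 genes, and the 15522 whose counts added up to 10 or more across the series entered the test.

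All mice were male C57BL/6 mice, bought at 8 weeks of age and fed a high-fat diet (HFD, 42% of calories from fat) throughout. After 2 weeks of the diet, each mouse received a single oral gavage in corn oil, and livers were collected 10 weeks later by the methods, while the labels give 12 weeks of treatment. HFD + Aroclor 1260 mice received 20 mg/kg of Aroclor 1260 and HFD + PCB 126 mice received 20 µg/kg of PCB 126. HFD control mice received the vehicle, and the HFD + Aroclor 1260 + PCB 126 mice received both agents at these doses, with 5 libraries in each group. The doses differ by weight, so compound and dose cannot be told apart, and each value below compares the exposures as they were given. Each library is 1 mouse, and the study sequenced 5 of the 10 mice of a group.

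PCB 126 is a single coplanar congener of the polychlorinated biphenyls (PCBs). It has no chlorine at the ortho positions of its rings, binds the aryl hydrocarbon receptor (AhR) and is called dioxin-like. Aroclor 1260 is a commercial mixture of highly chlorinated biphenyls, most of which carry ortho chlorines and bind AhR poorly, and such congeners are known to act in rodent liver through the constitutive androstane receptor (CAR) and the pregnane X receptor (PXR). Ligand-bound AhR enters the nucleus, pairs with ARNT and binds DNA at xenobiotic response elements of its target genes, of which Cyp1a1 and Cyp1a2 are the best known in liver. CAR and PXR bind with RXR near genes of the Cyp2b, Cyp2c and Cyp3a families, and Cyp2b10 and Cyp3a11 are their usual readouts in mouse liver.

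The depth of the 10 libraries was 24212471 to 33131408 counts with PCB 126 and 31265022 to 35611837 counts with Aroclor 1260. A two-sided exact permutation test over all splits of 5 against 5 gave p = 0.0873 for depth (Benjamini-Hochberg adjusted p = 0.349 over 4 library measures). Hepatocyte markers (Alb, Ttr, Apoa1, Serpina1a, Cps1 and Tat) summed to 68521 to 94162 CPM (counts scaled to the size of the library) with Aroclor 1260 and to 69576 to 81844 CPM with PCB 126, as the liver label implies. One HFD control library (replicate 4) and one library of the combined exposure (replicate 4) stood apart from the other 18 on the first principal component. Adrenal transcripts summed to 3085 and 2095 CPM in them and to 1.78 to 3.52 CPM in the 10 libraries compared here. They enter the estimate of the spread between mice, and without them 5 genes instead of 4 passed the threshold. The slope on GC content of the genes' deviations from their mean log2 CPM, for each 10 percentage points of GC, was −0.10 to 0.37 with PCB 126 and −0.10 to 0.11 with Aroclor 1260, with means 0.11 apart (exact permutation test, two-sided, all splits of 5 against 5, p = 0.302, Benjamini-Hochberg adjusted p = 0.403 over 4 library measures). The libraries of each of the sequencing runs are not named in the sources used here, so run and exposure cannot be told apart.

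Of the 15522 genes tested, 4 differed between the exposures at an adjusted p under 0.05 (edgeR quasi-likelihood test with Benjamini-Hochberg adjustment), which is 0.0258% of them. All 4 were higher with PCB 126 (0.0258%), and all 4 had a log2 fold change (log2FC, PCB 126 minus Aroclor 1260) above 0.34. They were Cyp1a1, Cyp1a2, Slc46a3 and Nsun7. No gene passed in the other direction (0%). At an unadjusted p under 0.05 the counts were 529 genes higher (3.41%) and 881 genes lower (5.68%) with PCB 126, so 37.5% of these genes were higher. That lean to the lower side varied with the processing and with 1 of the mice. The share higher was 43.6% with RLE factors, 46.7% with no filter, 45.3% with DESeq2 and 45.6% with the 10 libraries alone. It stayed at 37.3% with upper-quartile factors, 38.1% with the edgeR expression filter and 37.7% with a term for replicate number. With the GC trend of each library removed, the counts were 847 higher and 835 lower (50.4% higher). Without Aroclor 1260 replicate 2 they were 737 higher and 603 lower (55.0% higher). Leaving out any other single mouse kept the share higher at 36.2% to 42.1%. The median log2FC over all tested genes was −0.012. The 5 PCB 126 mice were all above the 5 Aroclor 1260 mice in 119 genes (0.767%) and all below them in 95 genes (0.612%). DESeq2 called more genes, 35 higher and 32 lower, and the 4 genes were among the 35.

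**Figure D1:**
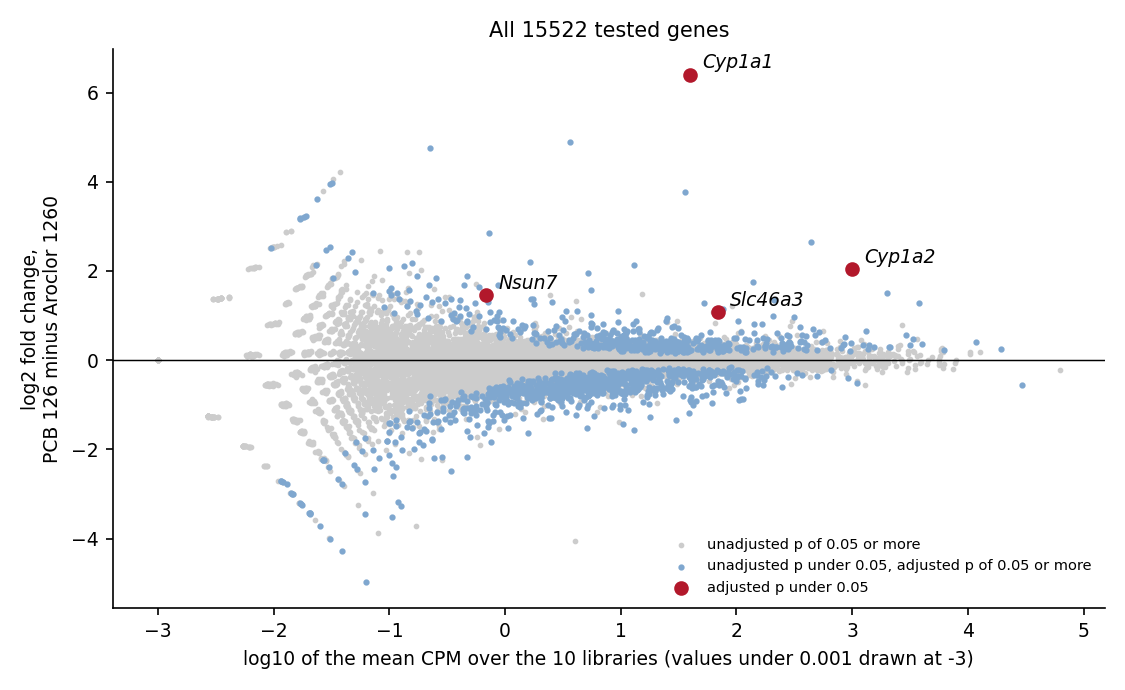
Log2 fold change between PCB 126 and Aroclor 1260 (vertical axis) against the log10 of the mean CPM over the 10 libraries (horizontal axis), 1 point per tested gene. The 4 genes with an adjusted p under 0.05 are drawn large and named, at log2FC of 6.40, 2.05, 1.46 and 1.08, and no point below 0 passed the threshold.

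Cyp1a1 encodes a cytochrome P450 that oxidizes polycyclic aromatic substrates and is nearly silent in liver without an AhR ligand. Its transcript was measured at 0.898, 1.23, 0.838, 0.737 and 0.922 CPM in the 5 Aroclor 1260 mice. In the 5 PCB 126 mice it was measured at 4.09, 7.80, 4.602, 314 and 62.1 CPM. The groups did not overlap, but the PCB 126 mice differed among themselves far more than the Aroclor 1260 mice did, and replicates 4 and 5 held most of the transcript. The log2FC was 6.40 (standard error 1.03, 95% interval 4.26 to 8.54, edgeR adjusted p = 0.0218). The value rests in large part on 1 mouse: without PCB 126 replicate 4 the log2FC was 4.40, the log2 ratio of the geometric means of all mice was 4.42 and that of the medians was 3.12. The call rested on the pooled estimate of the spread. The adjusted p was 0.0554 to 0.132 in 6 of the 10 fits that left out 1 mouse, and it was 0.152 in a fit of the 10 libraries alone.

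Cyp1a2 encodes the second P450 of the family, which metabolizes caffeine and aromatic amines, is expressed in hepatocytes around the central vein and is known to bind dioxin-like compounds. It was measured at 492, 400.2, 279, 385 and 367 CPM in the Aroclor 1260 mice. The PCB 126 mice were at 1120.0, 1127, 1495, 2601 and 1608 CPM, so the lowest PCB 126 mouse was above the highest Aroclor 1260 mouse. The log2FC was 2.05 (standard error 0.237, 95% interval 1.55 to 2.54, edgeR adjusted p = 0.000445), a 4.13-fold difference. Cyp1a2 passed in all 10 fits that left out 1 mouse, at log2FC of 1.80 to 2.15, and in all 11 other fits of the counts. The mouse with the highest Cyp1a1, PCB 126 replicate 4, also had the highest Cyp1a2. Divided by exon length, the mean level of Cyp1a2 with PCB 126 was 790.0 CPM per kilobase and that of Cyp1a1 was 28.2 CPM per kilobase, so that Cyp1a2 remained the more abundant transcript per length although its log2FC was the smaller.

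Slc46a3 encodes a lysosomal membrane transporter of the major facilitator superfamily whose transcript is known to be induced through AhR in mouse liver. It was measured at 56.3, 47.9, 36.5, 45.5 and 34.7 CPM with Aroclor 1260. With PCB 126 it was measured at 91.3, 86.4, 74.1, 122 and 95.1 CPM, with no overlap between the groups. The log2FC was 1.08 (standard error 0.179, 95% interval 0.71 to 1.46, edgeR adjusted p = 0.0218). The log2FC stayed between 0.97 and 1.19 when each mouse was left out, but the adjusted p rose as high as 0.150 and passed in 3 of the 10 fits.

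Nsun7 encodes a member of the NSUN family of RNA cytosine methyltransferases, known for a part in sperm motility. Its mean over the 10 libraries is under 1 CPM, which keeps it out of the rule for naming genes, so it is named here with its values already known. It was measured at 0.366, 0.292, 0.376, 0.437 and 0.338 CPM with Aroclor 1260 and at 0.745, 1.03, 1.29, 0.954 and 0.985 CPM with PCB 126. Even the lowest PCB 126 mouse was above the highest Aroclor 1260 mouse. The log2FC was 1.46 (standard error 0.238, 95% interval 0.96 to 1.95, edgeR adjusted p = 0.0218). It ranged from 1.37 to 1.55 when each mouse was left out, with an adjusted p under 0.05 in 1 of the 10 fits.

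**Figure D2:**
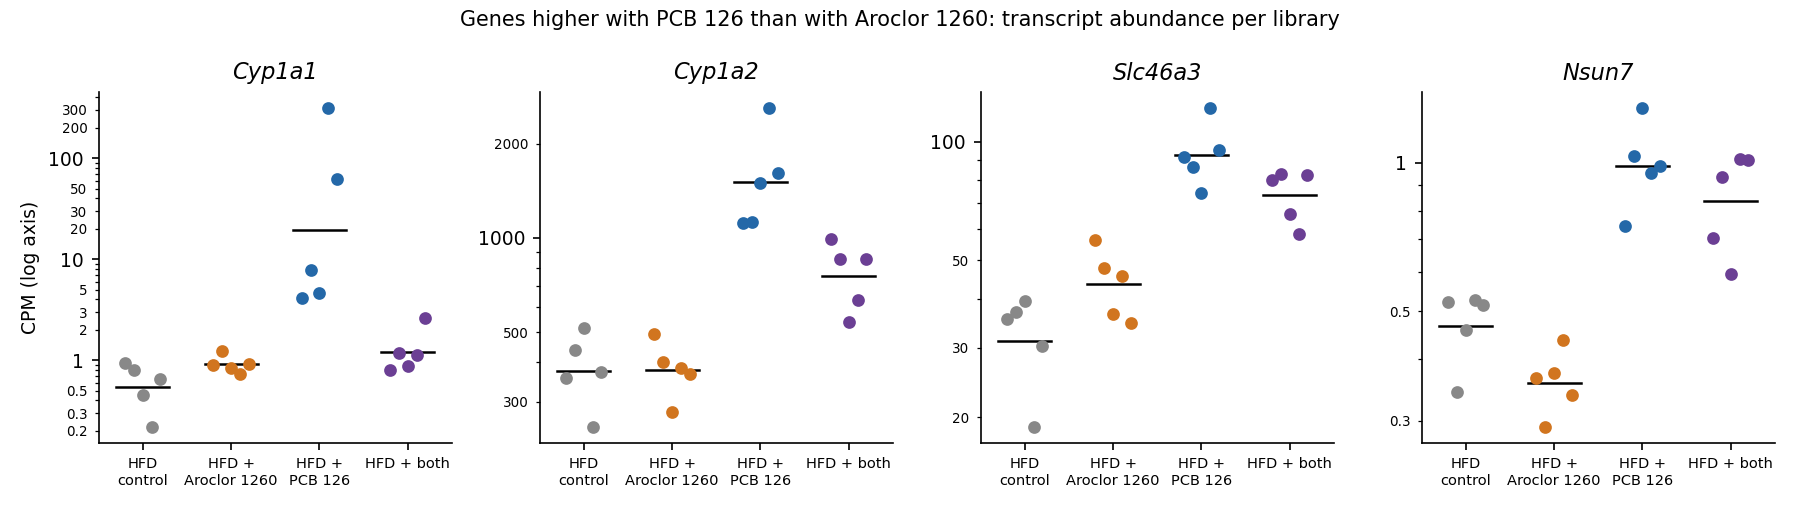
CPM of Cyp1a1, Cyp1a2, Slc46a3 and Nsun7 (vertical axes, log scale, CPM) in each library of the 4 groups (1 point per mouse, bar at the geometric mean of the group). In each panel the 5 PCB 126 mice lie above the 5 Aroclor 1260 mice, and for Cyp1a1 they spread from 4.09 to 314 CPM.

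The other groups place these values. Against HFD control, PCB 126 changed 18 of the 15522 genes (0.116%), with 2280 genes at an unadjusted p under 0.05, 320 calls by DESeq2 and 11 calls without the 2 libraries that stand apart. Aroclor 1260 changed 0 (0%), with 2677 genes at an unadjusted p under 0.05, 135 calls by DESeq2 and 0 without the 2 libraries. Both comparisons use the same HFD control mice, so their values are given side by side and not counted as separate evidence. The log2FC of Cyp1a1 was 6.93 with PCB 126 (edgeR adjusted p = 0.00950) and 0.53 with Aroclor 1260 (adjusted p = 0.817). That of Cyp1a2 was 2.04 with PCB 126 (adjusted p = 0.000294) and −0.0075 with Aroclor 1260 (adjusted p = 0.988). For Slc46a3 the values were 1.54 (adjusted p = 0.000294) and 0.45 (adjusted p = 0.228). Nsun7 was 1.08 above HFD control with PCB 126 (adjusted p = 0.0548) and −0.38 with Aroclor 1260 (adjusted p = 0.431), both short of the threshold. In the mice that received both agents, Cyp1a1 was measured at 0.792 to 2.62 CPM, below the lowest PCB 126 mouse, and Cyp1a2 at 537 to 992 CPM, between the ranges of the single exposures. Slc46a3 was at 58.4 to 83.0 CPM and Nsun7 at 0.595 to 1.02 CPM in these mice.

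Cyp1a1 (ENSMUSG00000032315; chromosome 9, 57687928 to 57703824, plus strand, GRCm38) and Cyp1a2 (ENSMUSG00000032310; chromosome 9, 57676937 to 57683703, minus strand) are neighbours that are transcribed away from each other, with 4224 bases between their annotated spans and 13958 bases between their RefSeq start sites. Slc46a3 (ENSMUSG00000029650) lies on the minus strand of chromosome 5, from 147878437 to 147894815. Nsun7 (ENSMUSG00000029206) lies on the plus strand of the same chromosome, from 66259897 to 66298026, far from Slc46a3. None of the 4 spans overlaps another gene of the count table.

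The promoters of the 4 genes are shown because these genes rose with the AhR ligand relative to Aroclor 1260. Each sequence is the RefSeq window (GRCm38.p6) from 250 bases before to 50 bases after the start site, written along the gene's own strand. Capitals mark GCGTG, the core of the xenobiotic response element, and TATAAA, the TATA box, each searched on both strands. The TATA box was added to the search after the sequences were seen.

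Cyp1a1, chr9:57697363-57697662, plus strand: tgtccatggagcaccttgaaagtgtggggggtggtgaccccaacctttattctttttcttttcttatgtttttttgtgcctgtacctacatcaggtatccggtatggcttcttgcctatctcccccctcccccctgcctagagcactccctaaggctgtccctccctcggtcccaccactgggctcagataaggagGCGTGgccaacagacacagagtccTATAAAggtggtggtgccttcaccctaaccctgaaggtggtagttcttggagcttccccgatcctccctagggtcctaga
Cyp1a2, chr9:57683606-57683905, minus strand: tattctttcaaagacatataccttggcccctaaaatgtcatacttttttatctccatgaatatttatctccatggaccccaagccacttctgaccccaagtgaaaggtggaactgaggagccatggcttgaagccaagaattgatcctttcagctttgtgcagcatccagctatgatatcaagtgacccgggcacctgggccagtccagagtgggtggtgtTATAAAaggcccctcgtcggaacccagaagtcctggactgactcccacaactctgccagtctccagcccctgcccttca
Slc46a3, chr5:147894766-147895065, minus strand: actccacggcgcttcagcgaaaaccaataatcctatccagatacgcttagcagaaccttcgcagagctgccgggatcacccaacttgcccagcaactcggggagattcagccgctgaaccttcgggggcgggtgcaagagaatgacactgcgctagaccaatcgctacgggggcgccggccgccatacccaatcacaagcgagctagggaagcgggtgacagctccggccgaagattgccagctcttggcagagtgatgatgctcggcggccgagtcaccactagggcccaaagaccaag
Nsun7, chr5:66259648-66259947, plus strand: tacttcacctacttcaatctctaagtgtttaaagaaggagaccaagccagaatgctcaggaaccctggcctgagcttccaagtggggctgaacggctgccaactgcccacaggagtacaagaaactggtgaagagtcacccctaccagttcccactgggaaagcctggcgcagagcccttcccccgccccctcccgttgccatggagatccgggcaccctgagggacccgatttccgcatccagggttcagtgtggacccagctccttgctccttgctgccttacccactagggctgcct

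GCGTG occurred once, in the window of Cyp1a1, starting 54 bases before the start site, and in none of the windows of the other 3 genes. Over all 32851 promoter windows of the table, 32.4% held it on either strand. TATAAA began 30 bases before the start site of Cyp1a1 and 29 bases before that of Cyp1a2, and was in neither of the other windows. It was in 13.6% of all windows. The window of Slc46a3 held 23 CpG dinucleotides, while those of Cyp1a1, Cyp1a2 and Nsun7 held 4, 3 and 7. The enhancer of mouse Cyp1a1 that AhR is best known to bind lies upstream of this window. A match is a description of the letters, and its absence says only that they are not in these 300 bases.

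The other AhR targets gave no call. Of the 20 genes known as AhR targets in rodent liver, 3 were called higher (Cyp1a1, Cyp1a2 and Slc46a3) and 0 lower. On the lower side 3 (Ugdh, Lpcat2 and Serpinb2) had an unadjusted p under 0.05, against 5.68% of all tested genes. The median log2FC of the 20 was −0.12, with 9 above 0 and 11 below. Tiparp, the AhR-induced ADP-ribosyltransferase that represses the receptor, was measured at 12.4 CPM with Aroclor 1260 and 10.01 CPM with PCB 126 (log2FC −0.31, 95% interval −1.07 to 0.45, adjusted p = 0.821). Nqo1, a quinone reductase under AhR and NRF2, gave a log2FC of −0.13 (interval −0.63 to 0.37). Cyp1b1, the third P450 of the family, was at 1.21 and 0.792 CPM (log2FC −0.60, interval −1.88 to 0.69). Ugt1a6a, Ugt1a6b and Ugt1a9, which conjugate phenols and share exons, so that their counts are uncertain, gave log2FC of 0.25, −0.23 and 0.45. Ugdh, which makes the UDP-glucuronic acid they use, gave −0.27 (adjusted p = 0.543), and Lpcat2, a lysophospholipid acyltransferase, gave −0.61 (adjusted p = 0.543). Serpinb2 had no count in any PCB 126 library and 0.0354 ± 0.0233 CPM (SD, n = 5) with Aroclor 1260, too low to give a fold difference. The summed level of the 20 genes, of which Cyp1a2 is the largest part, was 844 to 1188 CPM with Aroclor 1260 and 1783 to 3566 CPM with PCB 126.

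The receptor and its partners gave no call either. Of the 8 genes of the AhR pathway, 0 passed the threshold and 0 had an unadjusted p under 0.05. Ahr was measured at 45.5, 36.4, 33.3, 61.6 and 69.9 CPM with Aroclor 1260 and at 34.3, 47.4, 27.3, 30.4 and 53.6 CPM with PCB 126. These ranges overlap over most of their length (log2FC −0.35, 95% interval −0.91 to 0.20, adjusted p = 0.726). Arnt, its DNA-binding partner, was at 34.96 and 40.9 CPM on average (log2FC 0.23, interval −0.016 to 0.47). Ahrr, the repressor that AhR induces, was at 0.256 and 0.309 CPM (log2FC 0.27, interval −0.98 to 1.52).

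On the side of CAR and PXR, no gene passed the threshold. Of the 5 receptors and partners, 1 had an unadjusted p under 0.05, on the higher side. Of the 29 tested targets 1 was higher and 2 were lower at that level. Over all tested genes the shares were 3.41% higher and 5.68% lower. The targets had a median log2FC of −0.066, with 9 of 29 above 0. Nr1i3, which encodes CAR, was measured at 411, 305, 417, 506 and 377 CPM with Aroclor 1260. With PCB 126 it was measured at 522, 507, 778, 515 and 804 CPM. The 5 PCB 126 mice were all above the 5 Aroclor 1260 mice, by a narrow margin (log2FC 0.63, 95% interval 0.15 to 1.11, adjusted p = 0.400). The span of Nr1i3 overlaps Tomm40l, one of 15 named genes that overlap another gene. The others are Ugdh, Lpcat2, Trim7, Cxcl10, Pea15a, Gbp10, Fpr2, Plin4, Irs1, Nr1d1, Bcl6, Trmt1, Bud23 and Alkbh1, and as no source used here says how strand was handled in counting, all 15 counts are uncertain. Por, the reductase that passes electrons to the P450 enzymes, was at 304 to 464 CPM and 408 to 671 CPM (log2FC 0.56, adjusted p = 0.378).

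The classic CAR target Cyp2b10 was measured at 13.97, 30.7, 2.89, 6.64 and 15.7 CPM with Aroclor 1260. It was measured at 3.64, 9.99, 0.530, 8.71 and 4.01 CPM with PCB 126. The groups overlap, and both spread widely. The log2FC was −1.38 (standard error 0.727, 95% interval −2.90 to 0.13, adjusted p = 0.596), an interval that holds both 0 and a large difference. Cyp2c55, another CAR and PXR target, was at 3.36, 4.03, 1.30, 3.14 and 2.18 CPM with Aroclor 1260. PCB 126 replicate 1, at 3.46 CPM, lay among these values, while the other 4 PCB 126 mice were at 0.249 to 1.02 CPM (log2FC −1.12, adjusted p = 0.526). Gstm3, a glutathione transferase of a family of close paralogs, was at 29.5, 34.9, 43.2, 41.6 and 63.7 CPM with Aroclor 1260 and at 40.6, 9.09, 8.61, 6.47 and 19.6 CPM with PCB 126, and again only replicate 1 of the PCB 126 mice lay within the Aroclor 1260 range (log2FC −1.33, adjusted p = 0.528). Cyp3a11, the main readout of PXR, was at 1749 to 4749 CPM and 1940 to 3283 CPM (log2FC −0.28, interval −0.75 to 0.20, adjusted p = 0.743). Cyp2b, Cyp2c and Cyp3a genes have paralogs within each family, some of them close, and reads shared between members were not resolved here. Against HFD control, the log2FC of Cyp2b10 was 0.59 with PCB 126 (adjusted p = 0.761) and 1.97 with Aroclor 1260 (adjusted p = 0.222), and neither passed the test.

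**Figure D3:**
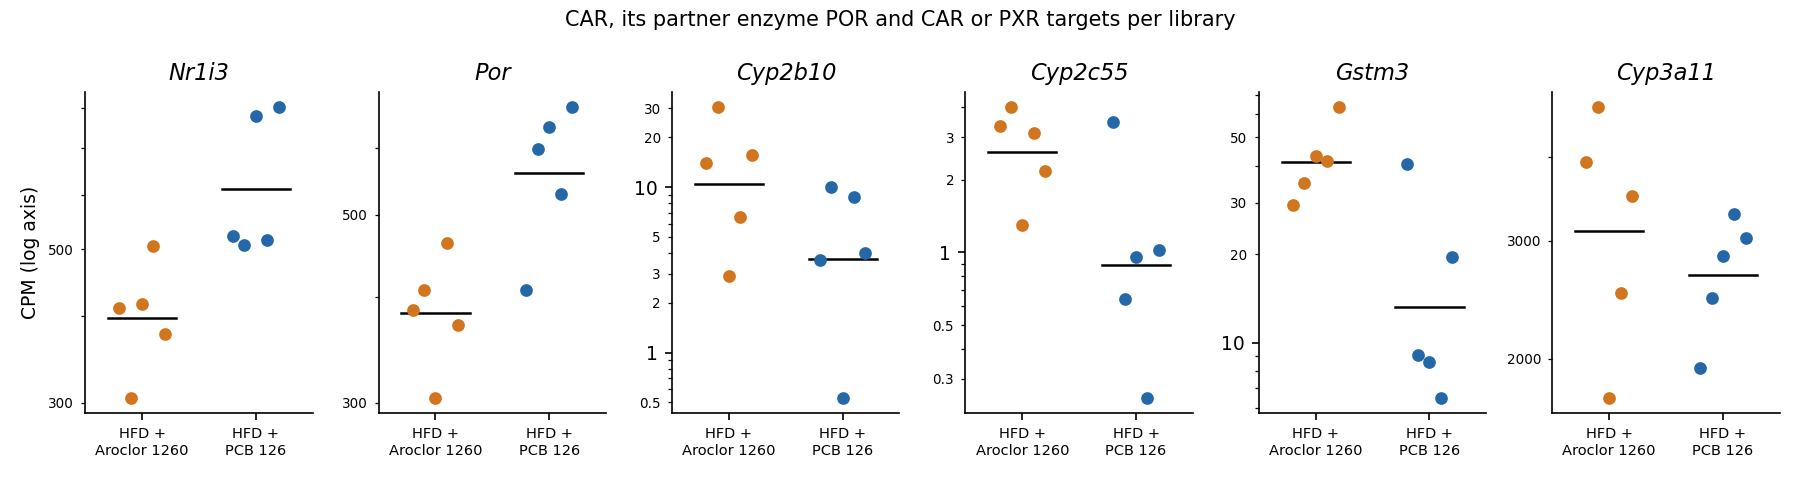
CPM (vertical axes, log scale) of Nr1i3, Por, Cyp2b10, Cyp2c55, Gstm3 and Cyp3a11 in the 5 Aroclor 1260 and the 5 PCB 126 mice (1 point per mouse, bar at the geometric mean). Nr1i3 does not overlap between the groups, Gstm3 and Cyp2c55 overlap through PCB 126 replicate 1, and none of the 6 genes has an adjusted p under 0.05.

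The next genes in order of p on the higher side are given as values, since none passed. Ttc39c, a tetratricopeptide repeat protein, was at 235 to 308 CPM with Aroclor 1260 and at 346 to 515 CPM with PCB 126 (log2FC 0.74, adjusted p = 0.113). It passed without the 2 libraries that stand apart (adjusted p = 0.0417) and without PCB 126 replicate 1 (adjusted p = 0.0240). Cdcp1, a transmembrane substrate of Src kinases, was at 8.17 to 10.5 and 10.7 to 20.7 CPM (log2FC 0.80, adjusted p = 0.135), and it passed without PCB 126 replicate 3 (adjusted p = 0.0209). Slc43a1, an amino acid transporter, gave 0.87, Scnn1a, the alpha subunit of the epithelial sodium channel, 0.64, Trim7, a ubiquitin ligase linked to glycogenin, 0.68, and Tbc1d30, a Rab GTPase activator, 0.85 (adjusted p = 0.221 for each). These genes were picked for a small p in this comparison, so a lack of overlap adds no support. In 6 of these 7 genes the groups did not overlap, against 0.767% of all tested genes on this side. Ahcy, which hydrolyses S-adenosylhomocysteine, was the exception, at 425 to 559 and 549 to 726 CPM (log2FC 0.46, adjusted p = 0.221).

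On the lower side, Cxcl10, an interferon-induced chemokine, came first. It was measured at 3.96, 12.5, 9.85, 8.99 and 6.33 CPM with Aroclor 1260 and at 3.82, 3.25, 3.71, 2.70 and 4.01 CPM with PCB 126. The PCB 126 mice lay close together, and 1 of the Aroclor 1260 mice, replicate 1, lay among them (log2FC −1.25, standard error 0.245, adjusted p = 0.128). Without that mouse the log2FC was −1.43 (adjusted p = 0.0124), so the call depends on 1 mouse. Gbp10 and Gbp5, interferon-induced guanylate-binding proteins with close paralogs, did not overlap between the groups. Gbp10 was at 10.5 to 17.8 and 3.24 to 8.48 CPM (log2FC −1.09, adjusted p = 0.221). Gbp5 was at 2.00 to 4.75 and 1.10 to 1.73 CPM (log2FC −1.14, adjusted p = 0.221). Glipr2 gave −1.05 (adjusted p = 0.134, and 0.0292 without Aroclor 1260 replicate 1), Pea15a, an adaptor of ERK and death-receptor signalling, −0.64 (adjusted p = 0.205), and Fpr2, a formyl peptide receptor of phagocytes, −1.51 (adjusted p = 0.237). Fblim1, Camk1d, Nt5e and Pxdn, which serve cell adhesion, calcium signalling, adenosine production and collagen cross-linking, gave log2FC of −0.84, −0.66, −0.58 and −0.53 with no overlap between the groups (adjusted p = 0.221 to 0.237). DESeq2 called all 10 of these genes lower, among 32 genes lower of 15522 tested, and it also called the genes given above on the higher side. The 10 genes were picked for a small p on the same counts. Neither these calls nor the lack of overlap are therefore separate support. The 8 genes called lower without PCB 126 replicate 1 included Pea15a (adjusted p = 0.00279).

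Genes of the extracellular matrix had the lowest median of the 19 pathway lists. Of the 12 fibrosis genes, 0 passed the threshold, 7 had an unadjusted p under 0.05 on the lower side, against 5.68% of all genes, and the 12 gave log2FC from −1.59 to −0.24 with a median of −0.95. Spon2, a secreted matrix protein that takes part in immune cell recruitment, was measured at 6.45, 5.69, 13.1, 10.7 and 12.1 CPM with Aroclor 1260 and at 4.47, 3.87, 6.03, 4.73 and 3.91 CPM with PCB 126 (log2FC −1.06, adjusted p = 0.237). Only PCB 126 replicate 3 reached the Aroclor 1260 range. Col3a1, a fibrillar collagen chain, was at 55.7, 41.0, 46.5, 78.2 and 58.7 CPM with Aroclor 1260 (log2FC −1.01, adjusted p = 0.369). PCB 126 replicate 1, at 56.8 CPM, lay within that range, and the other 4 PCB 126 mice were at 18.5 to 24.3 CPM. Col1a1 and Col1a2, the chains of type I collagen, gave −0.996 and −0.784 (adjusted p = 0.491 and 0.396), and Lox and Loxl2, which cross-link collagen, gave −1.59 and −0.63 (adjusted p = 0.395 and 0.476). Acta2, the actin of activated stellate cells, was at 8.87 and 4.31 CPM on average with a wide interval (log2FC −1.05, −2.71 to 0.62). The summed level of the 12 genes was 138, 106, 127, 211 and 151 CPM with Aroclor 1260 and 129.7, 70.5, 65.9, 67.5 and 78.1 CPM with PCB 126. It was 74.2 to 149 CPM in HFD control, a range that reaches into both. The 7 genes with an unadjusted p under 0.05 became 9 without PCB 126 replicate 1 and 5 without replicate 3 or without replicate 5.

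No interferon-stimulated gene passed the threshold. Of the 14 genes 1 had a log2FC above 0, against 47.3% of all tested genes, and the median was −0.28. On the lower side 5 had an unadjusted p under 0.05, against 5.68% of all tested genes. Ifit2 was at 8.55 ± 2.37 CPM (SD, n = 5) with Aroclor 1260 and 5.57 ± 1.70 CPM with PCB 126 (log2FC −0.61, adjusted p = 0.369), and Rsad2, an antiviral enzyme, gave −0.47 (adjusted p = 0.469). Isg15, a ubiquitin-like modifier, and Irf7, a transcription factor of the pathway, gave −0.052 and −0.034 (intervals −0.52 to 0.42 and −0.37 to 0.30). The count of 5 rests on single mice: it was 1 without Aroclor 1260 replicate 2, 2 without PCB 126 replicate 4 and 3 with the GC trend removed. The summed level was 435 to 684 CPM with Aroclor 1260, highest in replicate 2, and 386 to 522 CPM with PCB 126.

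No immune cell marker passed the threshold. All 9 Kupffer cell markers and all 7 markers of infiltrating macrophages and monocytes had a log2FC below 0, with medians of −0.56 and −0.73. In each list 4 markers had an unadjusted p under 0.05, against 5.68% of all tested genes on the lower side. For the Kupffer cell markers that count was 1 without Aroclor 1260 replicate 2 or 3 or PCB 126 replicate 4 or 5 and 6 without Aroclor 1260 replicate 1 or PCB 126 replicate 1, 2 or 3, and for the infiltrating macrophage markers it was 3 to 5 when each mouse was left out. Adgre1, which encodes F4/80, was at 20.4 and 10.7 CPM on average (log2FC −0.93, adjusted p = 0.298), Ccr2, the monocyte chemokine receptor, at 5.74 and 2.74 CPM (log2FC −1.06, adjusted p = 0.344), and Cd9 and Lgals3 gave −0.58 and −0.76. The Kupffer cell markers summed to 301, 599.9, 451, 351 and 394 CPM with Aroclor 1260 and to 403, 348, 335, 229.9 and 153 CPM with PCB 126. The infiltrating macrophage markers summed to 28.1 to 44.7 CPM with Aroclor 1260, to 36.8 CPM in PCB 126 replicate 1 and to 18.2 to 21.3 CPM in the other 4 PCB 126 mice. Neutrophil markers (median −1.08 over 5 genes, of which only S100a9 averaged 1 CPM or more), proliferation markers (−0.73 over 5), lymphocyte markers (−0.53 over 7, none averaging 1 CPM or more) and stellate cell markers (−0.31 over 7) had medians below 0, and each of these lists had 2 genes with an unadjusted p under 0.05. Sinusoidal endothelial markers had a median of −0.33 over 6, with 1 at an unadjusted p under 0.05. Cholangiocyte, erythroid, exocrine pancreas and adipocyte markers had medians of −0.21, −0.097, −0.17 and 1.60 with 0 at that level. In the pancreas list and in the adipocyte list only 1 gene averaged 1 CPM or more. The adipocyte markers summed to 31.4 to 124 CPM with Aroclor 1260 and to 49.7 to 169 CPM with PCB 126, which overlap. Among the 12 lists only Cpb1 of the pancreas list had no count in any of the 10 libraries. In bulk tissue, fewer cells of a type and less RNA per cell cannot be told apart. The part of these markers in the fibrosis and interferon values was not tested.

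**Figure D4:**
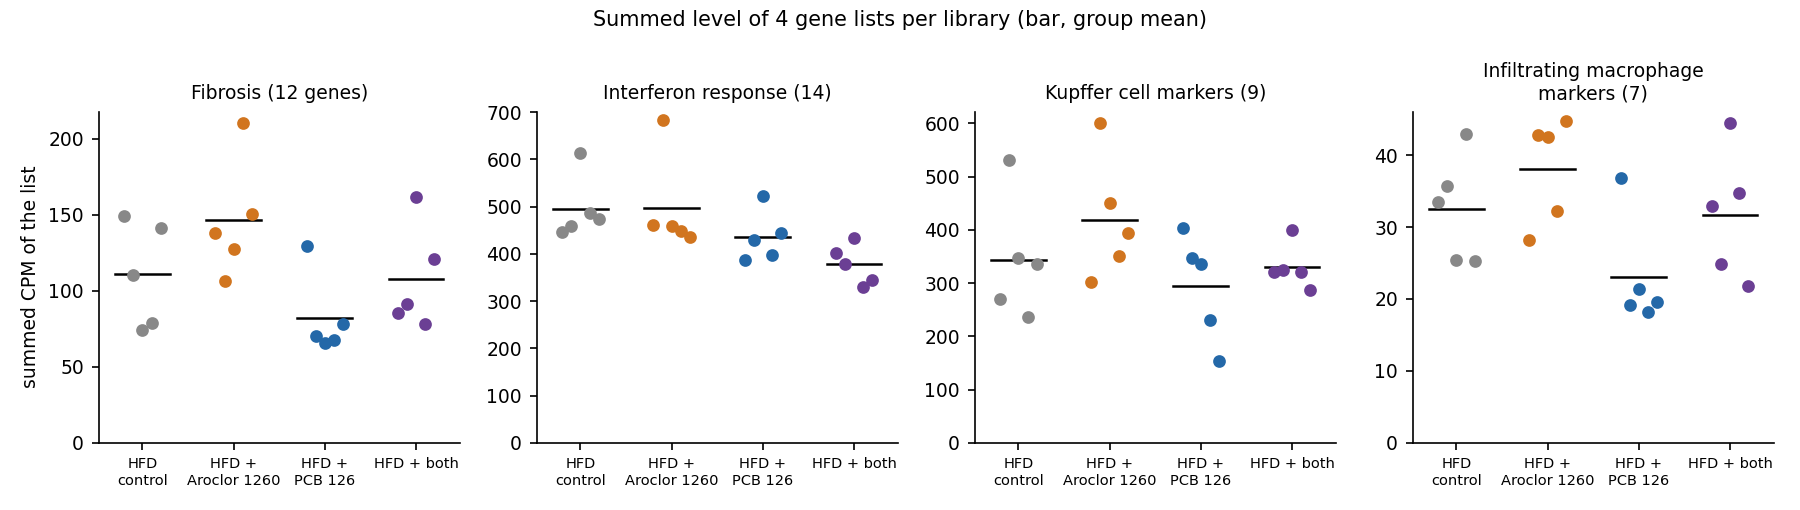
Summed CPM (vertical axes, from 0) of the fibrosis genes, interferon-stimulated genes, Kupffer cell markers and infiltrating macrophage markers in each library of the 4 groups (1 point per mouse, bar at the group mean). For the fibrosis genes and infiltrating macrophage markers, 4 of the 5 PCB 126 mice lie below all Aroclor 1260 mice and replicate 1 lies among them.

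The antioxidant genes of the NRF2 pathway showed 6 of 14 members with an unadjusted p under 0.05, all lower with PCB 126, against 5.68% of all tested genes on that side, and 0 calls (median log2FC −0.22). Hmox1, which degrades heme, was measured at 14.7, 28.8, 26.9, 17.0 and 19.9 CPM with Aroclor 1260 and at 15.95, 14.6, 12.2, 9.13 and 10.9 CPM with PCB 126 (log2FC −0.77, adjusted p = 0.237). Gclc, the catalytic subunit of the first enzyme of glutathione synthesis, was at 237 to 371 and 135 to 250 CPM (log2FC −0.60, adjusted p = 0.312). Me1, which supplies NADPH to lipid synthesis, gave −0.42 (adjusted p = 0.294). The summed level of the list, 4559 to 5264 CPM and 4744 to 4995 CPM, overlapped between the groups.

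No gene of lipid or glucose metabolism passed the test, and several gave wide intervals. In de novo lipogenesis, the median log2FC was −0.011 over 14 genes. Scd1, the stearoyl-CoA desaturase, was at 32559 to 37686 CPM with Aroclor 1260 and at 31878, 31489, 16559, 12393 and 27020.0 CPM with PCB 126, below in every mouse but with a wide spread (log2FC −0.55, adjusted p = 0.521). Elovl5, a fatty acid elongase, was at 1007 to 1090 and 639 to 939 CPM, with no overlap (log2FC −0.41, adjusted p = 0.290). Dgat1, which makes triglyceride, gave 0.24 (adjusted p = 0.539). Fatty acid oxidation had a median of 0.059 over 18 genes and 0 with an unadjusted p under 0.05; Pdk4, a kinase that limits glucose oxidation, gave 1.08 with overlapping groups (interval −0.075 to 2.24), Cpt2 gave 0.11 (−0.064 to 0.28) and Cyp4a10 0.31 (−0.19 to 0.81). The lipid droplet and uptake genes had a median of −0.10 over 16 and also 0 with an unadjusted p under 0.05, with Cd36, the fatty acid transporter, at −0.40 (interval −0.82 to 0.014), Vldlr at −0.65 (−1.31 to 0.014) and Plin4 at 0.40 (−0.11 to 0.91). Cholesterol synthesis had a median of −0.14 over 16 genes, with Hmgcs1 at −0.32, Mvk at 0.43 and Idi1 at −0.70. In glucose handling (median −0.12 over 13), Irs1, the insulin receptor substrate, gave −0.46 (adjusted p = 0.293), Slc2a2 −0.28 and Gys2 0.20.

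Bile acid genes had a median log2FC of 0.15 over 12. Cyp7b1, an oxysterol hydroxylase of the alternative pathway that is male-biased in mouse liver, was measured at 143, 116, 114, 146 and 177 CPM with Aroclor 1260. With PCB 126 it was at 126, 244, 267, 459 and 288 CPM, and only replicate 1 fell within the Aroclor 1260 range (log2FC 0.99, adjusted p = 0.512). Abcb11, the bile salt export pump, gave −0.34 (adjusted p = 0.369) and Cyp8b1 0.41 (interval −0.063 to 0.87). Genes of the growth hormone axis and sex-biased genes were above 0 in 13 of 18, against 47.3% of all tested genes, with a median of 0.27. The list mixes male-biased genes, female-biased genes and parts of the axis, so this share does not give a direction of sex bias. Cyp2d9, a male-biased P450 with close paralogs, was at 887 to 1116 CPM with Aroclor 1260 and at 1138 to 2231 CPM with PCB 126, with no overlap (log2FC 0.66, adjusted p = 0.237). Bcl6, a male-biased repressor, was at 21.03 to 81.3 CPM with Aroclor 1260, at 69.7 CPM in PCB 126 replicate 5 and at 6.41 to 17.9 CPM in the other 4 PCB 126 mice (log2FC −1.19, adjusted p = 0.528).

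Of the 16 clock genes, 0 passed the threshold, and at an unadjusted p under 0.05 there were 2 higher and 3 lower, against 3.41% and 5.68% of all tested genes. Nr1d1, a repressor of the clock, was at 32.8 to 68.8 and 16.05 to 40.1 CPM (log2FC −0.83, adjusted p = 0.318), and Npas2 gave −1.38 at under 1 CPM. The time of day at which each liver was taken is not in the labels. The heme and iron genes (median 0.020 over 12) included Alas1, the first enzyme of heme synthesis, at 0.37 (interval −0.031 to 0.78), Slc40a1 at −0.33 and Urod at 0.24. Stress genes (median 0.089 over 14) included Mt2 at 0.66, Atf4 at 0.29 and Trib3 at −0.57, with 0 at an unadjusted p under 0.05. Among acute phase genes (median −0.035 over 13), Fga and Crp gave −0.19 and −0.090. Apcs gave −0.86 (adjusted p = 0.543), a value set by Aroclor 1260 replicate 3 at 418 CPM, since without it the log2FC was 0.014. The log2FC of Crp turned to 0.024 with the GC trend removed.

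The genes that the study lists as writers, erasers and readers of RNA modifications gave no call. Of the 47 tested, 0 passed, and the median log2FC was 0.031. At an unadjusted p under 0.05, 3 were higher and 1 lower, against 3.41% and 5.68% of all tested genes. Igfbp2, an insulin-like growth factor binding protein that the study counts among the m6A readers, was measured at 204, 307, 116, 229 and 212 CPM with Aroclor 1260 and at 114, 278, 693, 624 and 387 CPM with PCB 126 (log2FC 0.97, adjusted p = 0.398), a wide overlap. Igfbp3, another such binding protein that the study lists in the same way, gave −0.63 (adjusted p = 0.344). Whether either protein reads RNA was not tested here. Trmt1, a tRNA guanosine methyltransferase, was at 18.7 to 23.1 and 19.1 to 32.5 CPM (log2FC 0.34, adjusted p = 0.427), and Ftsj1, a 2′-O-methyltransferase of tRNA, was at 15.3 to 16.9 and 15.3 to 19.5 CPM (log2FC 0.19, adjusted p = 0.523). Alkbh1, a demethylase, gave 0.33 (95% interval −0.051 to 0.71), Bud23, a methyltransferase of ribosomal RNA, 0.20 (−0.086 to 0.48) and Fmr1, an RNA-binding reader, −0.31 (−0.80 to 0.19). 

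**Figure D5:**
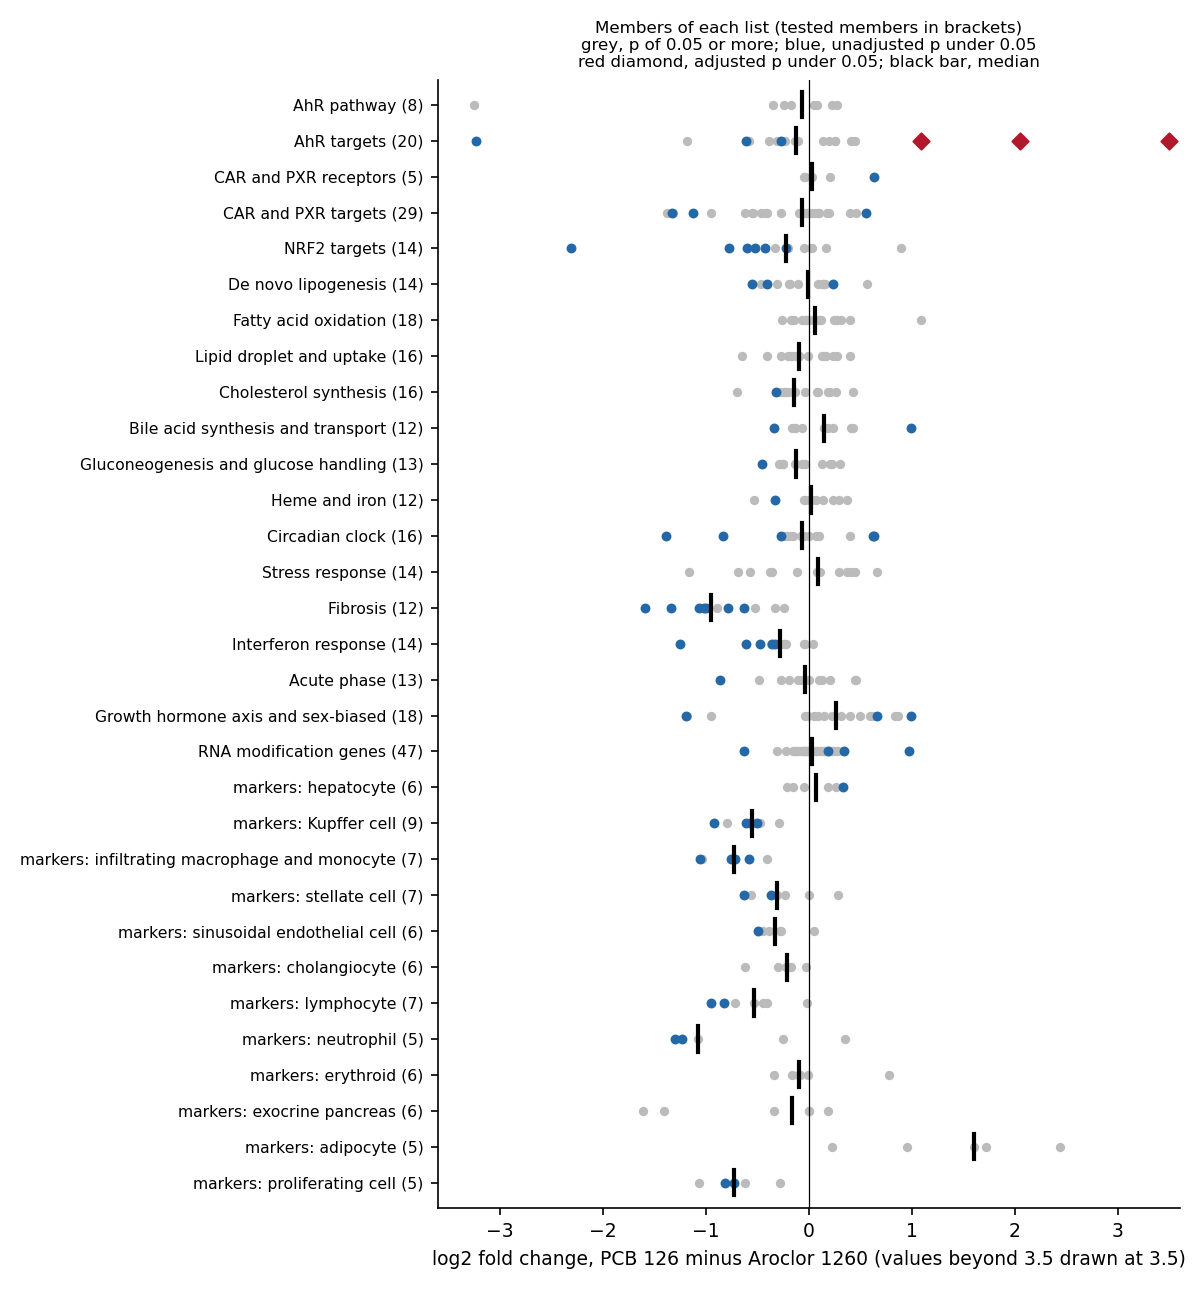
Log2 fold change between PCB 126 and Aroclor 1260 (horizontal axis) of each tested member of 19 pathway lists and 12 cell type marker lists (rows), with the median of each list as a black bar. The 3 red diamonds, all in the row of AhR targets, are the members with an adjusted p under 0.05, and the medians of the fibrosis, Kupffer cell and infiltrating macrophage rows lie at −0.95, −0.56 and −0.73.

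The small number of calls does not mean that the exposures gave the same transcriptome. For 10346 of the 11244 genes that averaged 1 CPM or more over the 10 libraries (92.0%), the 95% interval of the log2FC lay within 1 of 0 on either side. For 3171 of them (28.2%) it lay within 0.34. These intervals are not adjusted for the number of genes. The median standard error of the log2FC of these genes was 0.148.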

How the data were processed

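Liver RNA-seq counts of 20 mice in 4 groups of 5 were used. The authors prepared stranded mRNA libraries, sequenced them on an Illumina NextSeq in a pair of sequencing runs and did no trimming. According to the study's methods and the submitters' processing notes, reads were checked with FastQC (0.10.1), aligned to GRCm38.p6 with STAR (2.6) and counted per gene by the authors with HTSeq (0.10.0), and the deposited values are these raw counts. The annotation release and the strand setting are not given in the sources used here. The table lists no mitochondrial genes, so their share could not be taken.

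The 15522 of 21780 genes whose counts summed to 10 or more were tested with edgeR (4.0.16, R 4.3.3): TMM factors, 1 coefficient for each of the 4 groups, the quasi-likelihood test with 16 residual degrees of freedom and Benjamini-Hochberg adjustment over all tested genes, with a threshold of 0.05. Every adjusted p is from this fit unless another is named. The standard error was derived from the test, as the absolute log2 fold change divided by the square root of its F statistic. The 95% intervals are the log2 fold change plus or minus the t quantile times this standard error. CPM values use the TMM library sizes. DESeq2 (1.42.0), other normalizations and filters, a GC offset (spline with 6 degrees of freedom), a fit of the 10 libraries alone and fits without each mouse were alternatives, and the scripts were tested on simulated data. Gene symbols were found for 21754 of the 21780 identifiers.

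The members, gene lists and tests were chosen with earlier results of these data known. Named genes were the called genes averaging 1 CPM or more, up to 10 genes a direction with the smallest p, the AhR and CAR or PXR list members, up to 3 members of each other list with the smallest p, and the RNA modification genes with an unadjusted p under 0.05, with Alkbh1, Fmr1, Igfbp2 and Bud23. Other members of the fibrosis, interferon and marker lists, and Nsun7, were chosen after their values were seen. PCB 126 replicate 2 carries another number inside its title, and the replicate number stated first was used. Same-numbered mice of the 2 exposures did not deviate together (r = −0.17 to 0.27 by number), so the numbers do not pair them. Each library is 1 mouse. Modified ribonucleosides and proteins were not analysed here. Some members of the lists are not reported here by name.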

Additional observations from a re-analysis of the deposited data

Results flagged for a closer look

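Among 164 groups of 5 values tested, 9 had 1 mouse whose gap to its nearest neighbour, over the whole range, exceeded Dixon's 95% critical value. That value is set to flag about 5 in 100 groups of normal values. The genes here share the same mice and many were picked for a small p, so no expected share is given. Cyp1a1 was highest in PCB 126 replicate 4, at 314.3 CPM, with the other 4 mice at 4.09 to 62.1 CPM, and the log2 fold change was 4.40 without that mouse. Mt2, a metallothionein, was lowest in the same mouse, at 93.86 CPM against 138 to 150.2 CPM.

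PCB 126 replicate 1 held 5 of the 9. It was highest of its group for Cyp2c55 (3.459 CPM against 0.249 to 1.02), Gbp5 (1.729 CPM against 1.10 to 1.16) and Col3a1 (56.77 CPM against 18.5 to 24.3). It was lowest for Ahcy (549.3 CPM against 682 to 726) and Cyp4a10 (1229 CPM against 2786 to 3402). For Cyp2c55, Ahcy and Col3a1 its value lay within the Aroclor 1260 range. Without it 15 genes passed the threshold, 7 higher and 8 lower with PCB 126, and the 4 genes called with all mice were among them. Its total count of 33016142 lay within the range of the other libraries.

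Apcs, serum amyloid P, was highest in Aroclor 1260 replicate 3, at 417.6 CPM against 68.8 to 90.6 CPM. Bcl6 was highest in PCB 126 replicate 5, at 69.69 CPM against 6.41 to 17.9 CPM.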

How the results depend on the processing

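The 4 calls were unchanged with RLE or upper-quartile factors, no filter, the edgeR expression filter or the GC offset, and 4 of 4 were among the calls without the 2 libraries that stand apart, an alternative added after seeing the data, which called 5. The count was 3 with the FPKM filter, where Nsun7 was not tested, 2 (all higher) with the 10 libraries alone and 1 (higher) at an adjusted p under 0.01. DESeq2 called 67 genes, 35 higher and 32 lower. Leaving out each mouse gave 1 to 15 genes changed, 1 to 7 higher and 0 to 8 lower, with the highest counts without PCB 126 replicate 1 and 1 without Aroclor 1260 replicates 2, 3, 4 or 5 or PCB 126 replicate 5; Cyp1a2 was called in all 10. The replicate block called 3 genes, 2 higher (Cyp1a2 and Slc46a3) and 1 lower (Bcl2a1a), and with the GC offset 3 higher and 1 lower. Of the 10 mice, only 1 correlated best with the mouse of its own number in the other exposure. Against HFD control, PCB 126 changed 320 genes with DESeq2, 101 with the replicate block and 11 without the 2 libraries, and Aroclor 1260 changed 135, 26 and 0; the 26 include the adrenal transcripts Chga, Chgb, Dbh, Mc2r and Th, and HFD control replicate 4 is one of the libraries with adrenal transcripts. Of 1625 alternative values for 78 named genes, 1568 kept direction and side of the threshold, 27 gained and 27 lost the call and 3 reversed. Those were Apcs without Aroclor 1260 replicate 3 (0.014; range −1.08 to 0.014 over the mice left out) and Crp with the GC offset (0.024) and with the replicate block and GC offset (0.020). The share of counts in the 50 most abundant genes differed by −0.41 percentage points (exact permutation p = 0.5). As alternatives, the 10 most abundant differed by −1.48 (exact permutation p = 0.0476, not adjusted) and the 200 most abundant by 0.17 (exact permutation p = 0.786). The cause of these shifts was not tested. The intervals show the precision that 5 mice a group gave.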

Other observations

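The major urinary proteins, pheromone-binding proteins that male mouse liver secretes, were examined after their values were seen. Of the 22 Mup genes tested on chromosome 4, 21 had a log2 fold change above 0 (median 0.82, range −0.16 to 2.65), 13 were higher with an unadjusted p under 0.05 (3.41% of all tested genes were) and 0 passed the threshold (lowest edgeR adjusted p = 0.348). Their summed level was 21375, 15377, 20656, 18161 and 19798 CPM in the Aroclor 1260 mice. It was 15794, 27698, 37566, 37287 and 29366 CPM in the PCB 126 mice, of which replicate 1 alone lay within the Aroclor 1260 range. HFD control mice ranged from 12736 to 41898 CPM, across both exposures. The genes are near-identical, and reads shared between them make the values of single members uncertain.

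Other genes outside the naming rule were also chosen after their values were seen, and none passed the threshold. Moxd1, a monooxygenase-like gene, gave a log2 fold change of 4.90 (interval 2.04 to 7.76, edgeR adjusted p = 0.273), with PCB 126 mice at 1.04 to 17.8 CPM and Aroclor 1260 mice at 0.029 to 0.52 CPM, but HFD control mice ranged from 0.026 to 60.0 CPM. Sult1e1, the estrogen sulfotransferase, gave 3.78 (edgeR adjusted p = 0.293), and 0.95 to 4.30 when each mouse was left out. Ccl2, the chemokine that draws monocytes, gave −1.62 (edgeR adjusted p = 0.240) with no overlap between the groups. Mmp12, a macrophage elastase, gave −1.52 (edgeR adjusted p = 0.396), and Bcl2a1a, a survival gene of leukocytes with close paralogs, gave −2.18 (edgeR adjusted p = 0.134).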
